A study of Homo sapiens with 4 samples.

Results

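Deubiquitinases are proteases that remove ubiquitin from proteins or trim ubiquitin chains, and so oppose the ligases that mark proteins for the proteasome or for a change of activity. The human enzymes fall into families by their catalytic fold. The ubiquitin-specific proteases (USP) are the most numerous, and the ubiquitin C-terminal hydrolases (UCH, with BAP1) and the ovarian tumour proteases (OTU) are smaller cysteine protease families. The mRNA levels of 41 such genes were followed here, 33 of the USP, 4 of the UCH and 4 of the OTU family, among the 61267 genes of the count table. They are a part of these families, chosen by name. Left out were USP10 and USP13, the stated targets of the compound, and also USP18, TNFAIP3, CYLD and OTUD1. Further USP and OTU genes, such as USP49 and OTULIN, were not among the 41 either. All 41 were found in the table, and 39 of them passed the filter on low counts and were tested.

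RNA sequencing had been done on SU-DHL-2, an established human line of diffuse large B-cell lymphoma labelled as wild type, given Spautin-1 at 10 µM for 36 h (2 libraries) or vehicle (2 libraries). Both groups grew in the same medium with 15% fetal bovine serum. The compound is known for blocking the deubiquitinases USP10 and USP13, and the comparison asked here is which other deubiquitinase mRNAs differed between cells given the compound and cells given vehicle. The tissue label is lymph node. Whether each library stands for its own culture is not stated, so p-values here measure spread between 4 libraries that may be technical.

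The libraries held 34893634 to 38325536 counts after Spautin-1 and 34115420 to 38362526 counts after vehicle. All 8 B-cell markers listed were read at over 1 CPM (counts scaled to library size with TMM factors), the highest being MS4A1, which encodes CD20, at a mean of 514 CPM. Their summed level was 1583 and 1537 CPM in the Spautin-1 libraries, against 1163 and 1031 CPM in the vehicle libraries. Of 7 markers of T cells, monocytes, fibroblasts, epithelium and endothelium, 1, the epithelial adhesion gene EPCAM, reached 1 CPM, at a mean of 50.6 CPM. The other 6 stayed at or under 0.746 CPM in each library, and the summed level of all 7 was 52.4 and 55.8 CPM after Spautin-1, against 46.5 and 52.9 CPM after vehicle. The part of these marker levels in the results below was not tested.

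Ordered by TPM, which scale reads by exonic length and so allow levels of different genes to be compared, the deubiquitinases spanned a wide range, and 27 of the 41 averaged at least 10 TPM over the 4 libraries. The median of the 39 tested was 23.6 TPM, against 6.61 TPM over all protein-coding genes tested. USP20, which acts on membrane receptors and binds the VHL tumour suppressor, and USP1, which removes ubiquitin from FANCD2 and PCNA in DNA repair, stood at the top with 152 and 147 TPM. They were followed by the nucleolar enzyme USP36 at 84.8 TPM, by USP7 at 75.3 TPM, by the proteasome-bound UCHL5 at 70.3 TPM and by OTUD6B at 70.3 TPM. Among the 4 listed OTU genes OTUD5 came second at 40.5 TPM, and among the 4 listed UCH genes UCHL3, at 39.6 TPM.

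Most neighbours in this order could not be ranked. Over the 4 libraries, and in TMM-scaled RPKM, a per-length scale which puts Spautin-1 and vehicle libraries on a common footing, the ranges overlapped in 35 of 40 neighbouring pairs. One clear step lay between USP1, at 47.2 to 58.1 RPKM, and USP36, at 28.6 to 32.5 RPKM. Another lay at the low end between USP38, at 0.544 to 0.803 RPKM, and USP2, at 0.0255 to 0.242 RPKM. TPM themselves were not used for changes, since the median gene tested stood 0.14 lower on the log2 scale in Spautin-1 by TPM (log2 ratio -0.14) and at -0.01 by TMM-scaled CPM.

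Of the genes not tested, UCHL1, an abundant neuronal enzyme, had 0 reads in all 4 libraries, which allows up to 0.0206 CPM over the 4 libraries together (3 counts of their summed total, counting error only). OTUB2 had 1 and 0 reads in the Spautin-1 libraries, against 0 and 12 reads in the vehicle libraries, and so a single vehicle library held nearly all of its reads.

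**Figure D1:**
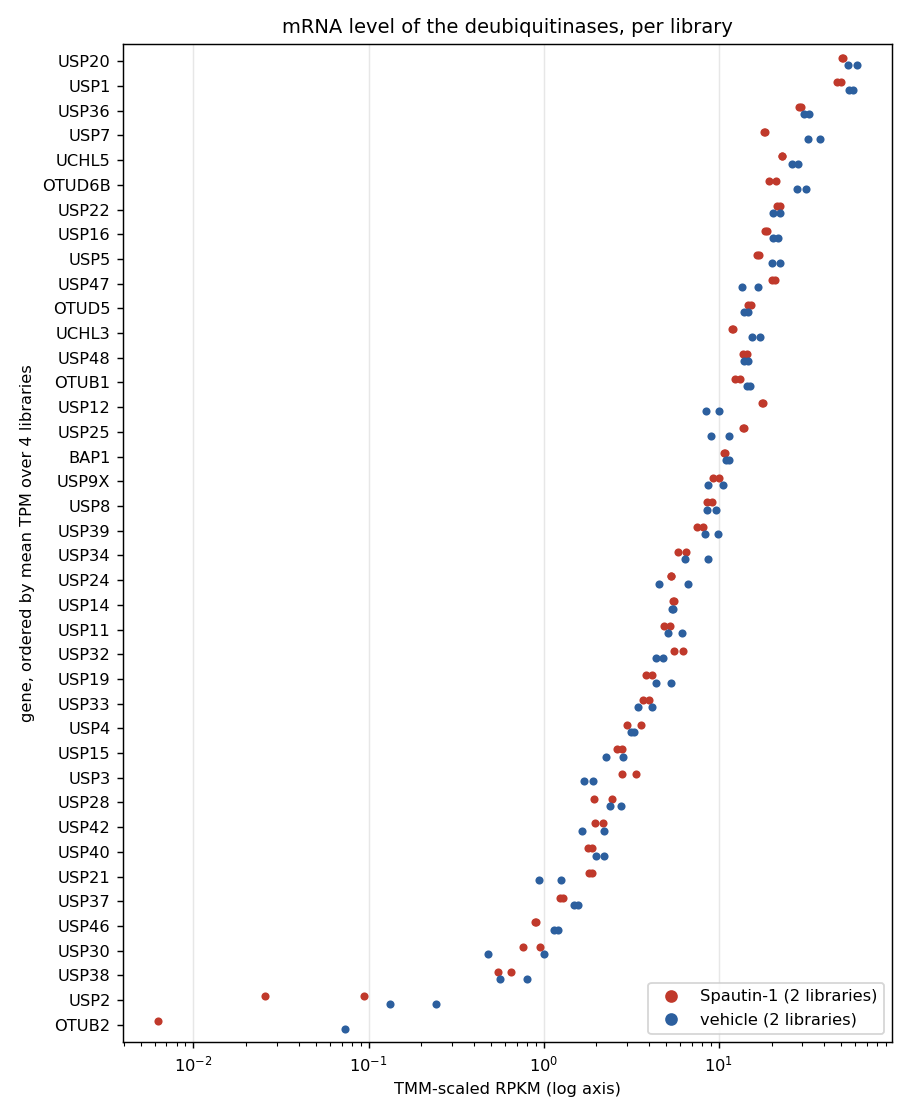
Level of each deubiquitinase with any read (rows, ordered by mean TPM) in TMM-scaled RPKM on a log axis, with 1 point per library, Spautin-1 in red and vehicle in blue; libraries with 0 reads (OTUB2) have no point on the log axis. USP20 and USP1 lie to the right of all others, and for most neighbouring rows the points overlap.

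After Spautin-1 the deubiquitinases moved in both directions. Of the 39 tested, 5 rose (USP12, USP3, USP21, USP47 and USP25) and 3 fell (USP7, OTUD6B and UCHL3) at an adjusted p under 0.05 in edgeR's quasi-likelihood test, Benjamini-Hochberg adjusted over the 18368 genes that passed the filter. That is 20.5% of the 39, beside 22.0% of all genes tested (11.5% higher and 10.5% lower) and 24.6% of the protein-coding genes tested, so the share of called deubiquitinases was near the background and is no result about them as a class. In RNA from whole cultures, fewer cells of a kind and less RNA per cell cannot be told apart. All 5 that rose belong to the USP family, which holds 33 of the 39 genes tested and where 1 fell. Of the listed UCH genes 1 of 3 tested fell, and of the listed OTU genes 1 of 3 tested. With 3 genes tested in each of the UCH and OTU families, these directions cannot compare the families.

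The median log2 fold change of the 39 was -0.12, beside -0.01 over all genes tested and 0.02 over protein-coding genes tested, with 25 values below 0 and 14 above. Both Spautin-1 libraries lay below both vehicle libraries in 17 of the 39 (43.6%, beside 30.6% of all genes tested) and above them in 7 (17.9%, beside 30.8%). An exact permutation test of 2 libraries against 2 cannot give a p under 0.333 for any single gene, so such a separation alone carries little weight. The count of those that fell depended on the correction: 6 fell with an offset for gene length and 7 with an offset for GC content. These stand beside 12.0% and 12.5% of all genes called lower under the same offsets.

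The counts also depended on each library. Without Spautin-1 replicate 1, 1 gene was higher and 2 were lower, beside 6.35% and 6.29% of all genes tested (12.6% together). Without Spautin-1 replicate 2 the counts were 2 and 1, beside 5.41% and 3.95% (9.36% together). Leaving out vehicle replicate 1 gave 5 higher and 8 lower, beside 15.2% and 14.2% (29.3% together), and leaving out vehicle replicate 2 gave 7 and 7, beside 13.5% and 12.4% (25.9% together). A replicate block gave 6 and 4, beside 14.2% and 13.5%. In either direction, the share of all genes called was 22.0% with RLE scaling, 22.2% with upper quartile scaling, 22.6% with library size scaling, 14.6% with no filter and 28.1% with a filter of 1 CPM in 2 libraries. It was 22.8% by DESeq2, 21.7% by limma-voom, 26.1% by the exact test, 27.8% with the block, 24.0% with the length offset and 26.0% with the GC offset.

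**Figure D2:**
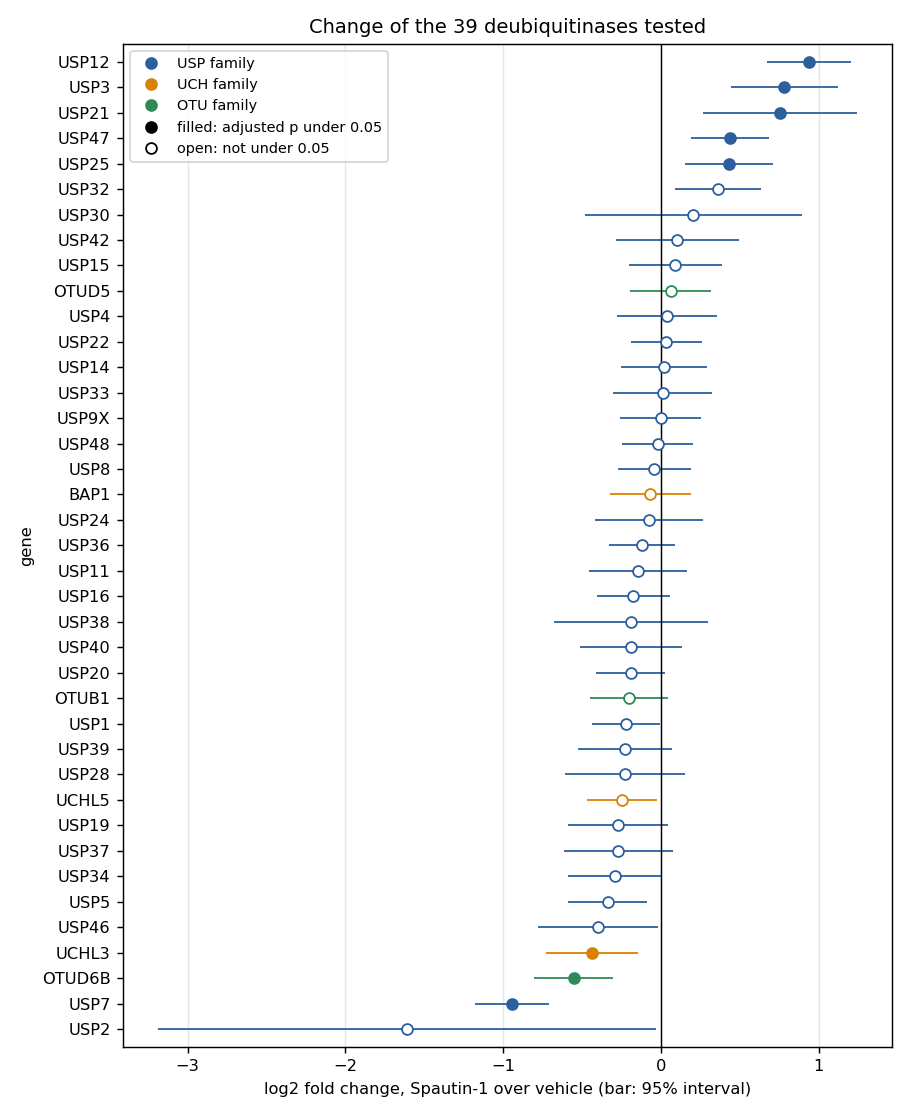
Log2 fold change, Spautin-1 over vehicle, of the 39 deubiquitinases tested (rows), with the 95% interval as a bar and colour by family; filled points passed the adjusted p of 0.05. The filled points run from USP12 at 0.94 to USP7 at -0.94, and USP2, with the fewest reads, has the widest interval.

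USP12 and USP7 were the 2 deubiquitinases called in the main fit and in every one of the 15 alternatives. USP12 becomes active when bound by the WD-repeat protein WDR48 and removes ubiquitin from histones. USP12 (chromosome 13, 27066156 to 27171811, GRCh38) was at 90.5 and 90.1 CPM in the Spautin-1 libraries, against 51.0 and 43.2 CPM in the vehicle libraries. Both Spautin-1 values lay far above both vehicle values and nearly coincided. It rose 1.92-fold, to 90.3 ± 0.288 CPM after Spautin-1 against 47.1 ± 5.47 CPM after vehicle (mean ± SD, n = 2 each). On the log2 scale this is 0.94 ± 0.12 (SE), with edgeR adjusted p = 0.000283.

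USP7 is a broad deubiquitinase of the nucleus, known for stabilising the ubiquitin ligase MDM2. USP7 (chromosome 16, 8892097 to 8975328) was at 160.0 and 158 CPM in the Spautin-1 libraries, against 330.2 and 281 CPM in the vehicle libraries. The lower vehicle value was still well above either Spautin-1 value. Its log2 fold change was -0.94 ± 0.11, with a 95% interval of -1.18 to -0.71. Over the main fit and the alternatives it ran from -1.05 to -0.82, with edgeR, DESeq2 or limma adjusted p no higher than 0.000185. Of the summed TPM of the 41 genes, USP7 made up 4.07% and 4.08% in the Spautin-1 libraries, against 7.55% and 6.65% in the vehicle libraries, while USP12 made up 3.95% and 3.99% after Spautin-1, against 2.0% and 1.75% after vehicle. Neither USP7 nor USP12 shares exonic bases with another gene in the table.

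USP3, which removes ubiquitin from histone H2A and is known from the response to DNA breaks, was at 26.1 and 21.8 CPM in the Spautin-1 libraries, against 14.7 and 13.1 CPM in the vehicle libraries. It rose 1.72-fold (log2 fold change 0.78 ± 0.16, edgeR adjusted p = 0.00428), and the call was lost without Spautin-1 replicate 1 (0.63, adjusted p = 0.0728). Of its 7764 exonic bases, 1910 overlap the antisense gene USP3-AS1 on the other strand. USP3-AS1 was at 12.4 and 9.78 CPM after Spautin-1, against 6.74 and 5.64 CPM after vehicle, a log2 fold change of 0.85 ± 0.20 (adjusted p = 0.0102, and 0.127 without Spautin-1 replicate 1). The libraries were stranded, but use of the strand in the counting was not given in the sources used here, so reads of USP3 and of USP3-AS1 may be mixed and their changes cannot be told apart.

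The starts of USP12 and USP7 are shown because these are the 2 genes called under every alternative. Each sequence gives 250 bases before and 50 after the gene's start, from RefSeq (GRCh38.p14), 5′ to 3′ on the gene's strand; for USP7 it is the farthest upstream of the RefSeq starts given, which lies inside the gene's span in the count table, not at its 5′ end. Capitals mark matches on either strand to the GC box GGGCGG, the only motif of the 7 searched that these windows hold.
USP12, chr13:27171762-27172061 (minus strand): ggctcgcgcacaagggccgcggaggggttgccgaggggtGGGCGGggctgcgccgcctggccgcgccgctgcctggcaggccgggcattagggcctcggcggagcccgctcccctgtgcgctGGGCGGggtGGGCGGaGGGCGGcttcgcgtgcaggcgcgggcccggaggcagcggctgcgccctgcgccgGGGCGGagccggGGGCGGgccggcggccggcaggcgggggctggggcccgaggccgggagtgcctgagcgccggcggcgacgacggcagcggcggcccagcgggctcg
USP7, chr16:8963857-8964156 (minus strand): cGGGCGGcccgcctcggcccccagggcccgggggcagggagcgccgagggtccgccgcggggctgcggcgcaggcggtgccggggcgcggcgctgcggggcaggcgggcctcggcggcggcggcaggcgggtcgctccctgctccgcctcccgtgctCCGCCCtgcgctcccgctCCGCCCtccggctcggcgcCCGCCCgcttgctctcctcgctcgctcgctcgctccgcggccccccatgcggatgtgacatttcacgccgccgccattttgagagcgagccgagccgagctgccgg
Both windows are rich in G and C (84.3% for USP12 and 81.3% for USP7, beside a median of 58.3% over the promoters of 27305 genes). GGGCGG occurred 6 times in the window of USP12 and 4 times in that of USP7. Of the 41 genes, 34 had such a window, with a median of 67.5% G and C, and 26 of them (76.5%) held GGGCGG on either strand, beside 44.5% of all windows. The ETS-type letters CCGGAAG were found in 10 of the 34 (29.4%, beside 10.6% of all windows). Searched on both strands, the letters TGACGTCA of the cyclic AMP element and TGAGTCA of the AP-1 element matched 0 of the 34 windows, beside 1.97% and 4.9% of all. CCAAT matched 9, CACGTG 3 and TATAAA 3 of the 34, beside 35.7%, 7.41% and 12.0% of all. These letters are a description of the windows, not of binding.

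USP21, like USP3 a histone H2A deubiquitinase, was the least abundant of the genes that rose, at 6.85 and 7.07 CPM after Spautin-1, against 3.51 and 4.71 CPM after vehicle. These levels rest on 257 and 245 reads in the Spautin-1 libraries, against 122 and 182 reads in the vehicle libraries. The groups did not overlap, and the log2 fold change was 0.76 ± 0.22 (edgeR adjusted p = 0.0309). The call was lost without vehicle replicate 1 (0.56, adjusted p = 0.0722), without Spautin-1 replicate 1 (0.77, 0.0896) and without Spautin-1 replicate 2 (0.74, 0.128).

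USP47, which stabilises DNA polymerase beta in base excision repair, was at 277 and 287 CPM in the Spautin-1 libraries, against 229 and 186 CPM in the vehicle libraries. It rose 1.36-fold (log2 fold change 0.44 ± 0.11, edgeR adjusted p = 0.016). The vehicle libraries differed from each other by more than the Spautin-1 libraries did, and the call was lost without Spautin-1 replicate 1 (adjusted p = 0.0672) or replicate 2 (0.118). Of the 13722 exonic bases of USP47, 5681 overlap DKK3 on the opposite strand, so reads of USP47 and DKK3 may be mixed. DKK3 itself was at 16.2 and 22.3 CPM after Spautin-1, against 12.5 and 11.7 CPM after vehicle (a log2 change of 0.67, edgeR adjusted p = 0.0184). Leaving out Spautin-1 replicate 2 gave a log2 change of 0.44 for DKK3, and its call was lost.

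USP25, known from innate immune signalling, was at 109 CPM in both Spautin-1 libraries, against 90.3 and 71.1 CPM in the vehicle libraries, a log2 fold change of 0.43 ± 0.13 (edgeR adjusted p = 0.0305). Here too the vehicle libraries lay further apart, and the call was lost without Spautin-1 replicate 1 (adjusted p = 0.162) or replicate 2 (0.161). USP28, its closest relative, was at 14.2 and 11.3 CPM after Spautin-1, against 16.1 and 13.8 CPM after vehicle, with overlapping groups and a log2 fold change of -0.23 (95% interval -0.61 to 0.15, adjusted p = 0.387).

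USP46, the closest relative of USP12, which also works with WDR48, was far less abundant and did not pass. It was at 7.89 and 8.0 CPM in the Spautin-1 libraries, against 10.2 and 10.7 CPM in the vehicle libraries, a log2 fold change of -0.40 (95% interval -0.78 to -0.02, edgeR adjusted p = 0.125). The difference between the changes of these relatives was not tested.

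Among the genes that fell, OTUD6B, an OTU enzyme linked to proteasome assembly and protein synthesis (chromosome 8, 91070196 to 91087095), was at 84.2 and 76.9 CPM after Spautin-1, against 125 and 111 CPM after vehicle. It fell 1.47-fold (log2 fold change -0.55 ± 0.11, edgeR adjusted p = 0.00523), and the call was lost without Spautin-1 replicate 2 (-0.48, adjusted p = 0.121). Its divergent neighbour OTUD6B-AS1, on the opposite strand and sharing 271 exonic bases, was at 150.3 and 139 CPM after Spautin-1, against 219.9 and 206 CPM after vehicle. OTUD6B-AS1 also fell 1.47-fold (-0.56 ± 0.10, adjusted p = 0.0026), and its call too was lost without Spautin-1 replicate 2 (0.0771). The overlap covers a small share of the 3977 exonic bases of OTUD6B, but OTUD6B-AS1 had the higher CPM in each library. Some reads of OTUD6B and OTUD6B-AS1 may thus be mixed, and their changes cannot be told apart.

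UCHL3, which cleaves small adducts from the C terminus of ubiquitin and of NEDD8, was at 22.5 and 22.9 CPM in the Spautin-1 libraries, against 29.1 and 32.4 CPM in the vehicle libraries. It fell 1.35-fold (log2 fold change -0.44 ± 0.14, edgeR adjusted p = 0.0365), a call lost without Spautin-1 replicate 1 (adjusted p = 0.241) or replicate 2 (0.256). It shares 580 of its 1890 exonic bases with a gene on the same strand, ENSG00000261553, so some reads may be split between them. That gene was at 42.1 and 42.5 CPM after Spautin-1, against 53.1 and 47.5 CPM after vehicle (adjusted p = 0.169).

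**Figure D3:**
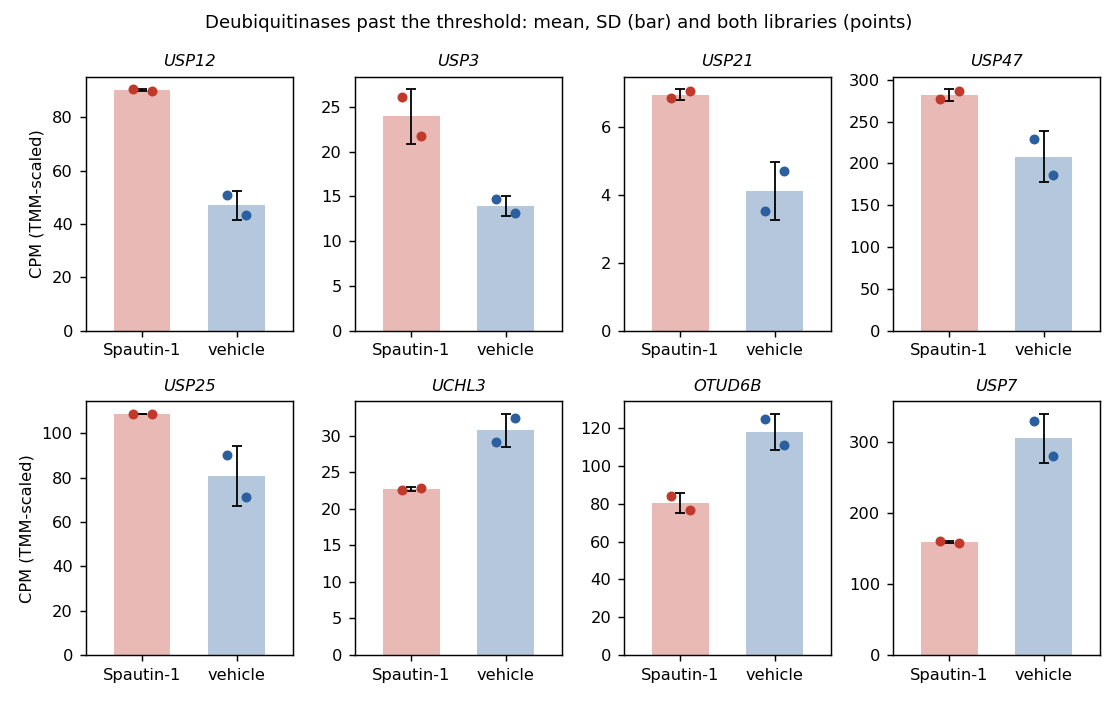
CPM of the 8 deubiquitinases past the threshold, with the mean and SD of 2 libraries as bar and error bar and each library as a point, Spautin-1 left and vehicle right. In every panel both Spautin-1 points lie on 1 side of both vehicle points, with the widest relative gaps for USP12 and USP7.

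The other 31 genes tested did not pass the threshold, and 30 of them had a 95% interval of the log2 fold change within 1 unit on either side of 0. The exception was USP2, with 16 and 4 reads after Spautin-1, against 38 and 23 reads after vehicle. Its log2 fold change of -1.61 had an interval of -3.19 to -0.03 (edgeR adjusted p = 0.135). It ran to -2.84 without Spautin-1 replicate 1 and to -0.96 without Spautin-1 replicate 2, and was -1.12 and -1.98 without vehicle replicate 1 and replicate 2, not called in any of them. The antisense gene USP2-AS1 overlaps 1142 of the 4523 exonic bases of USP2, so reads of USP2 and USP2-AS1 may be mixed. USP2-AS1 had 30 and 41 reads after Spautin-1, against 107 and 79 reads after vehicle, and fell (log2 fold change -1.37, edgeR adjusted p = 0.023). Its log2 fold change was -1.05 without vehicle replicate 1 and -1.12 without Spautin-1 replicate 1, where the call was lost.

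The deubiquitinases of the proteasome did not pass. USP14, which trims chains on the 26S particle, was at 32.8 and 33.1 CPM after Spautin-1, against 32.7 and 32.3 CPM after vehicle, a log2 fold change of 0.02 with an interval of -0.25 to 0.29. UCHL5, bound to the proteasome receptor ADRM1 and also part of the INO80 chromatin remodeller, was at 153 and 153 CPM after Spautin-1, against 175 and 188 CPM after vehicle. Its log2 fold change of -0.25 ± 0.10 missed the threshold (edgeR adjusted p = 0.104) and passed with the length offset (0.0495), with the GC offset (0.0219) and without vehicle replicate 1 (0.00444). USP5, which takes apart free ubiquitin chains, was the closest to a call among the genes with lower values. It was at 63.1 and 61.4 CPM after Spautin-1, against 83.1 and 74.5 CPM after vehicle (log2 fold change -0.34, adjusted p = 0.0541), and it was called in 9 of the 15 alternatives.

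Among enzymes of DNA repair and the cell cycle, USP1 was at 193 and 182 CPM after Spautin-1, against 225 and 214 CPM after vehicle. The groups did not overlap, but the log2 fold change of -0.22 ± 0.10 missed the threshold (edgeR adjusted p = 0.13). It passed with the GC offset (0.0299) and without vehicle replicate 2 (0.0206). USP37, which acts on cyclin A, gave -0.27, and USP48 gave -0.02, without a call in any alternative. USP24 stood at 64.2 and 63.7 CPM after Spautin-1, between the vehicle values of 80.2 and 54.6 CPM, and was called lower without vehicle replicate 2 (-0.33, adjusted p = 0.00834), while without vehicle replicate 1 its log2 fold change was 0.22, not called.

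The chromatin enzymes USP22, of the SAGA coactivator, USP16, an H2A deubiquitinase of mitosis, and the tumour suppressor BAP1, which acts on H2A with the ASXL proteins, gave log2 fold changes of 0.03, -0.18 and -0.07, none past the threshold. USP16 was called lower with the GC offset (-0.30, adjusted p = 0.0348). The nucleolar USP36 and USP39, a splicing factor of the family without protease activity, gave -0.12 and -0.23, and USP39 was called lower without vehicle replicate 1 (-0.35, adjusted p = 0.0154).

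USP20, the most abundant of the 41, was at 283 and 278 CPM after Spautin-1, against 299.7 and 341 CPM after vehicle. Its log2 fold change of -0.19 ± 0.10 (95% interval -0.41 to 0.02) did not pass (edgeR adjusted p = 0.194), except without vehicle replicate 1 (-0.28, 0.00432). USP33, its closest relative, gave 0.01. Of the enzymes of endosomes and receptor traffic, USP8 gave -0.04 and USP9X, which stabilises MCL1, -0.00 (95% interval -0.26 to 0.26), while USP32 gave 0.36 and missed the threshold narrowly (adjusted p = 0.0566). USP32 was at 52.8 and 59.4 CPM after Spautin-1, against 45.7 and 41.7 CPM after vehicle, and was called higher with the exact test (0.0468), the replicate block (0.0296), the GC offset (0.0424) and without vehicle replicate 1 (0.000953) or replicate 2 (0.034).

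The calls of 3 further enzymes, the membrane-anchored USP19 and USP30 and the large USP34, varied with the vehicle library used. USP19, of the endoplasmic reticulum, gave -0.27 and was called lower without vehicle replicate 1 (-0.41, adjusted p = 0.0107). USP30, of the outer mitochondrial membrane, was at 3.89 and 4.91 CPM after Spautin-1, between the vehicle values of 2.48 and 5.12 CPM, and was called higher without vehicle replicate 2 (0.83, adjusted p = 0.0339), while without vehicle replicate 1 its log2 fold change was -0.22, not called. USP34, which acts on axin in Wnt signalling, overlaps AHSA2P on the opposite strand over 3263 of its 18443 exonic bases. Reads of USP34 and AHSA2P may thus be mixed. USP34 was at 119 and 108 CPM after Spautin-1, against 160.0 and 119 CPM after vehicle (-0.29, edgeR adjusted p = 0.152). It was called lower with the length offset (0.046), with the GC offset (0.031) and without vehicle replicate 2 (-0.49, 2.8e-06).

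The relatives USP4, USP11 and USP15 gave log2 fold changes of 0.04, -0.15 and 0.09 with overlapping groups. OTUB1, which also blocks the conjugating enzyme UBC13, gave -0.20 and OTUD5, a regulator of TRAF3, 0.06 ± 0.12 (edgeR adjusted p = 0.767); OTUD5 was at 50.5 and 48.5 CPM after Spautin-1, against 46.3 and 48.8 CPM after vehicle. The remaining USP38, USP40 and USP42 gave -0.19, -0.19 and 0.10. None of these 8 genes was called in any alternative.

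**Figure D4:**
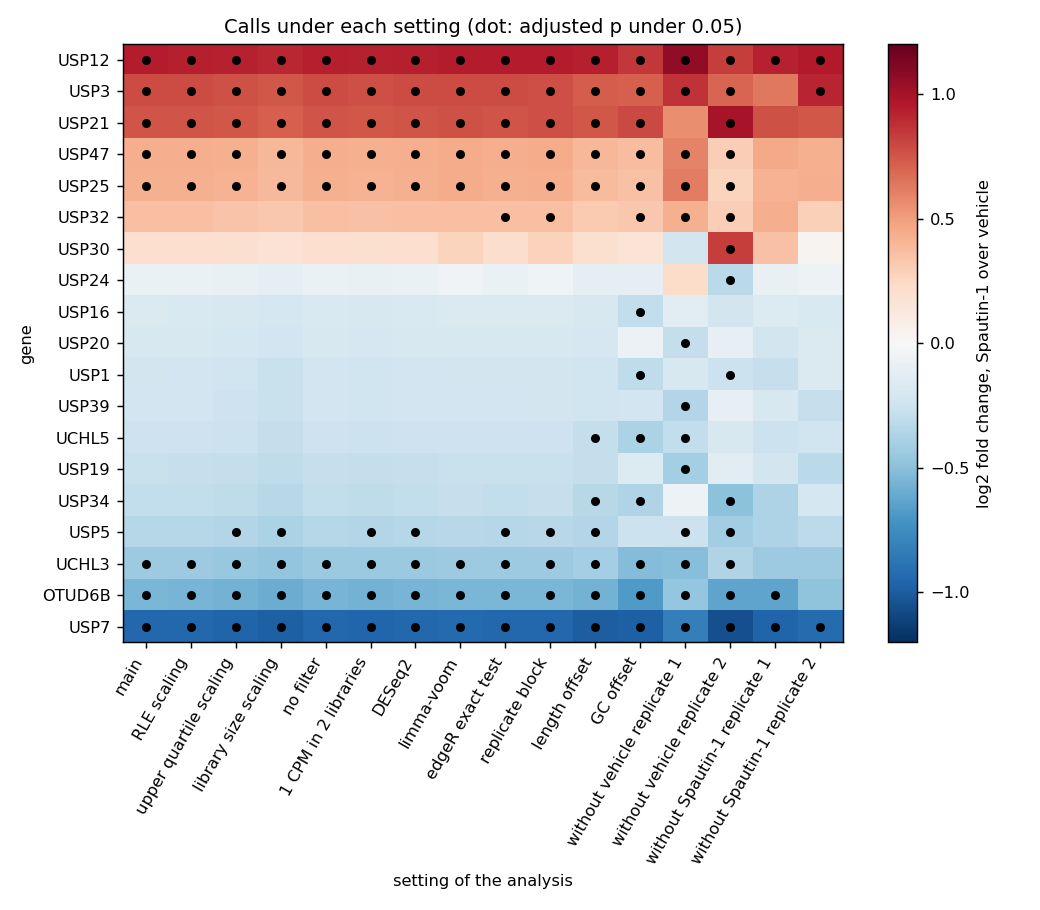
Log2 fold change, Spautin-1 over vehicle, as colour for the 19 deubiquitinases called in at least 1 setting (rows) under the main fit and the 15 alternatives (columns), with a dot where the adjusted p was under 0.05. The rows of USP12 and USP7 are dotted throughout, and the columns without a Spautin-1 library hold the fewest dots.

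Deubiquitinases that are not among the 41 give the wider pathway. Of 41 more, of all families, 34 were tested, and 6 rose and 1 fell (20.6%, beside 22.0% of all genes tested). The median log2 fold change was 0.18, beside -0.01 over all genes tested. The number called varied with the library left out, as it did for all genes. The median of the list was 0.19 without Spautin-1 replicate 1 and 0.19 without Spautin-1 replicate 2. It was 0.21 and 0.10 without vehicle replicate 1 and replicate 2. ZRANB1, an OTU enzyme known from Wnt signalling, was at 39.7 and 46.3 CPM after Spautin-1, against 29.4 and 24.0 CPM after vehicle (log2 fold change 0.69 ± 0.15, edgeR adjusted p = 0.00569; 0.0885 without Spautin-1 replicate 2). OTUD7B, a brake on NF-kB, rose 2.05-fold (0.118 without Spautin-1 replicate 1), and OTULIN, which removes linear chains, rose 1.33-fold, to 177 ± 9.26 CPM after Spautin-1 against 133 ± 16.9 CPM after vehicle (0.0893 and 0.219 without Spautin-1 replicate 1 and replicate 2). USP49 fell 1.63-fold (log2 fold change -0.70, edgeR adjusted p = 0.00998). Its log2 fold change was -0.60 without Spautin-1 replicate 2, where the call was lost. USP49 shares 5470 of its 10935 exonic bases with ENSG00000288721 on the same strand, so some reads may be split between them. ZRANB1 overlaps CTBP2 on the opposite strand over 3416 of its 5993 exonic bases, so their reads may be mixed.

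Of 19 proteins that bind or activate one of the 41, 18 were tested, and 5 rose and 2 fell. That is 38.9%, beside 22.0% of all genes tested and 24.6% of the protein-coding genes tested. The median log2 fold change was -0.09, beside -0.01 over all genes tested. This list was chosen with earlier results of these data known, so an excess over these shares is no result about partners. The counts were 1 and 2 without Spautin-1 replicate 1, 0 and 1 without Spautin-1 replicate 2. They were 4 and 5 when vehicle replicate 1 was left out, and 5 and 5 when vehicle replicate 2 was. These are 16.7%, 5.56%, 9 of 18 and 55.6% in the 4 fits, beside 12.6%, 9.36%, 29.3% and 25.9% of all genes tested. HCFC1, a chromatin cofactor that BAP1 binds, was at 92.1 and 73.7 CPM after Spautin-1, against 197 and 234 CPM after vehicle, and fell 2.6-fold (log2 fold change -1.38 ± 0.13, edgeR adjusted p = 3.08e-05), a call made in each of the 15 alternatives. ASXL1, the activator of BAP1, rose 1.49-fold (adjusted p = 0.0065; 0.0919 and 0.0586 without Spautin-1 replicate 1 and replicate 2). WDR48, the activator of USP1, USP12 and USP46, was at 22.8 and 27.2 CPM after Spautin-1, against 18.5 and 15.2 CPM after vehicle (0.57 ± 0.16, adjusted p = 0.0244; 0.27 without Spautin-1 replicate 2).

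Of the 3 listed adaptors of USP22 in SAGA, ATXN7 rose 1.43-fold (adjusted p = 0.0266; 0.168 and 0.153 without Spautin-1 replicate 1 and replicate 2) and ATXN7L3 fell 1.52-fold (adjusted p = 0.00893; 0.172 without Spautin-1 replicate 2). ENY2, the remaining adaptor, gave a log2 fold change of -0.16 and did not pass (adjusted p = 0.307). Of the 6 genes of ubiquitin itself and of its E1 enzymes, 0 were called by edgeR's quasi-likelihood test, by DESeq2, by limma-voom or by the edgeR exact test, and 2 (RPS27A and UBA1) had an unadjusted p under 0.05. Beside 22.0% of all genes called in the main fit, 6 genes are too few for 0 calls to show a lack of change. UBB, the most abundant, was at 616 and 663 CPM after Spautin-1, against 677 and 673 CPM after vehicle. With the length offset, 1 of these 6 was called lower, beside 12.0% of all genes tested. Calls also varied with the vehicle library left out. The median log2 fold change of the 6 was 0.13 in the main fit. It was 0.10 and 0.02 without vehicle replicate 1 and replicate 2, and 0.15 and 0.07 without Spautin-1 replicate 1 and replicate 2.

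Of 19 genes whose proteins the listed enzymes are known to deubiquitinate, 17 were tested, and 4 rose and 4 fell. That is 47.1%, beside 22.0% of all genes tested and 24.6% of the protein-coding genes tested. The median log2 fold change was 0.06. This list was chosen with earlier results of these data known, so an excess over these shares is no result about substrates. The number called varied with the library left out. The median of the list was 0.12 and 0.09 without Spautin-1 replicate 1 and replicate 2. It was 0.11 and 0.14 without vehicle replicate 1 and replicate 2. UHRF1 and DNMT1, which together maintain DNA methylation and are both substrates of USP7, fell in the main fit and in all 15 alternatives. UHRF1 was at 138 and 125 CPM after Spautin-1, against 326 and 352 CPM after vehicle (log2 fold change -1.37 ± 0.10, edgeR adjusted p = 5.8e-06), and DNMT1 was at 816 and 710.5 CPM, against 1203 and 1089 CPM after vehicle (-0.59 ± 0.10, adjusted p = 0.0012). PCNA, a substrate of USP1, fell 1.49-fold (adjusted p = 0.00556; 0.109 and 0.051 without Spautin-1 replicate 1 and replicate 2).

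MDM4, a partner of MDM2 and a substrate of USP7, was at 22.7 and 28.4 CPM after Spautin-1, against 10.9 and 8.46 CPM after vehicle, and rose 2.65-fold (edgeR adjusted p = 0.000247). ID2, a substrate of USP1, rose 6.63-fold, to 4.07 ± 0.574 CPM after Spautin-1 against 0.61 ± 0.089 CPM after vehicle, where it rested on 19 and 26 reads. MYC, a substrate of USP28 and USP36, rose 1.61-fold, to 127 ± 3.15 CPM after Spautin-1 against 78.8 ± 13.2 CPM after vehicle (adjusted p = 0.00255). The calls of MDM4, ID2 and MYC were made in all 15 alternatives. MDM2 gave 0.27 (adjusted p = 0.106) and did not pass the threshold. These are mRNA levels, and the protein levels on which deubiquitination acts were not measured here.

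**Figure D5:**
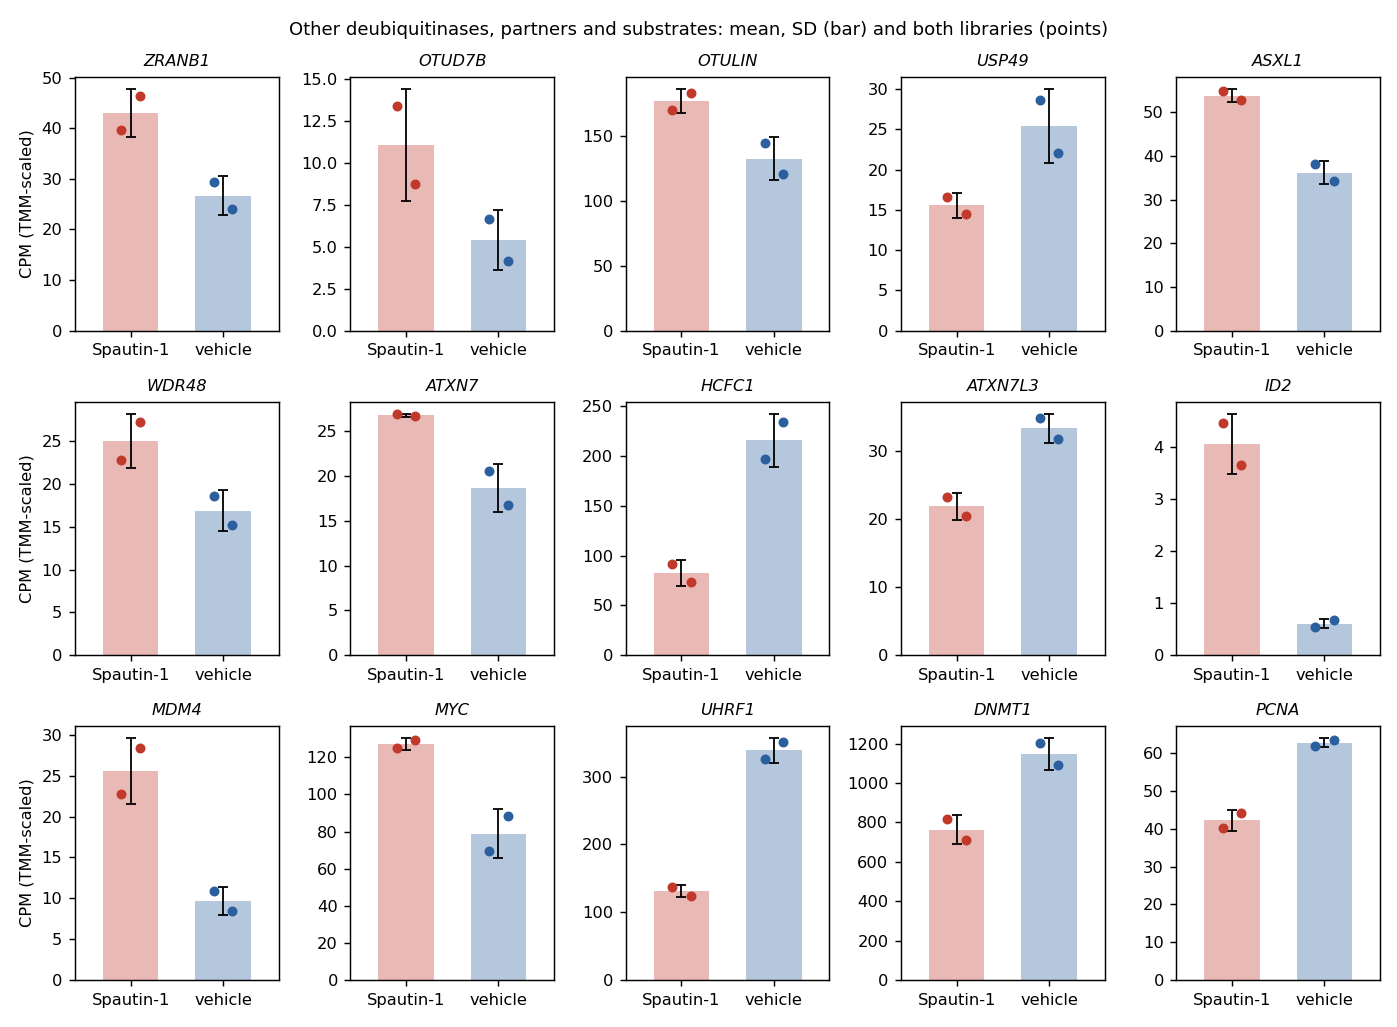
CPM of the 15 named genes among other deubiquitinases, partners and substrates, with the mean and SD of 2 libraries as bar and error bar and each library as a point, Spautin-1 left and vehicle right. HCFC1, UHRF1, MDM4 and ID2 show the widest relative gaps between the groups.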

How the data were processed

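The counts deposited by the authors are raw read counts per gene with each gene's coordinates and exonic length, per the file headers. Stranded mRNA libraries were made, per the labels' protocols. Per the submitters' processing notes, the tools were Trimmomatic 0.36, featureCounts, Subread 1.5.1 and edgeR 3.12.1, and the build was GRCh38. Aligner, annotation release and counting strand were not given in the sources used here.

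Tests were run with edgeR 4.0.16 under R 4.3.3. The filter filterByExpr (minimum count 10, total 15) left 18368 of 61267 genes, libraries were scaled by TMM, and the quasi-likelihood F test was two-sided with a threshold of 0.05 after Benjamini-Hochberg adjustment. SE is the log2 fold change divided by the square root of F. TPM and RPKM use the exonic length. Alternatives were RLE, upper quartile and library size scaling, no filter, 1 CPM in 2 libraries, DESeq2 1.42.0, limma-voom (limma 3.58.1), the edgeR exact test, a replicate block, loess offsets (span 0.3) on gene length and on GC content (GENCODE 29 transcripts, for 89.8% of genes tested), and leaving out each library. Protein-coding genes were identified by symbol or identifier in GENCODE 29.

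Full values were given for all called members and the 2 highest per family by level, and at least a log2 fold change for members whose call changed. Close relatives were named for some members only (taken from general knowledge, since no protein table was used). Named besides were, from each further list, the 3 called genes with the smallest p in each direction. The members and lists were chosen with earlier results of these data known. On simulated data of 17804 genes the procedure recovered 24.6%, 60.3% and 89.1% of 1.5-fold, 2-fold and 4-fold changes. These were made in 65, 63 and 64 genes, and 5.93% of the procedure's calls were false. Far more genes, 4045 of 18368, were called in the data, so these shares need not hold there. Some items are not reported here.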

Additional observations from a re-analysis of the deposited data

How the results depend on the processing

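The number of all genes called ran from 1067 to 2981 higher and from 780 to 2785 lower when a library was left out, of the deubiquitinases followed from 1 to 7 higher and from 1 to 8 lower, and of the other deubiquitinases from 1 to 10 higher and from 0 to 4 lower. A fit that leaves a group with 1 library assumes that it varies like the other group. Of the deubiquitinases followed, 6 were lower with the length offset and 7 with the GC offset, against 3 in the main fit; the cause was not tested. Of the other deubiquitinases, 3 were higher with library size scaling, against 6, and against 1 lower in the main fit 2 were lower with upper quartile scaling, library size scaling, no filter, the 1 CPM filter, DESeq2, the exact test or the replicate block, 3 with the length offset and 4 with the GC offset. In either direction, 14.7%, 20.6% and 29.4% of this list were called with library size scaling, the length offset and the GC offset. Of all genes, 22.6%, 24.0% and 26.0% were called in these settings, and the differences were not tested. The median of the followed genes stayed between -0.16 and -0.06. No label ties equal replicate numbers to a common culture, and the deviations of same-numbered libraries were uncorrelated over genes (r = -0.0015). With the replicate block 6 followed genes were higher and 4 lower, against 5 and 3, and 2615 and 2485 of all genes, against 2112 and 1933. Of 584 values of single followed genes under an alternative, 28 gained a call, 11 lost one, 31 changed sign without a call and 0 reversed a call. In the simulated data, with 2 libraries a group, 24.6% of the 1.5-fold changes were recovered. Fewer genes were changed there than were called in the data, so this share need not hold for the data.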
